A study of Mus musculus with 4 samples.

Results

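The genes described here are 50 genes of the extracellular matrix, the protein scaffold around and between cells, in spatial transcriptomes of mouse pancreas with caerulein-induced acute pancreatitis. They were taken by name from the gene list of the deposited count tables, 50 of 32285 genes, and comprise 5 fibrillar collagens, 7 other collagens, 13 basement membrane genes, 6 proteoglycans, 7 elastic fibre and microfibril genes, 8 matricellular and adhesive glycoproteins and 4 genes of collagen processing and crosslinking. All 50 had UMIs in every section, counted over the spots with at least 500 UMIs. A UMI, or unique molecular identifier, marks 1 captured probe molecule, and a spot is a small region of the slide that can hold several cells of different types.

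The study compared pancreas from *Pdx1-Cre* mice with intact *Ehmt2* with pancreas from *Pdx1-Cre;Ehmt2* fl/fl mice, 2 sections each, on a C57Bl/6 background. Their labels, PDX1-Cre (WT) and EHMT2 knockout (KO) PDX-Cre, are shortened here to WT and KO. *Ehmt2* encodes G9a, a histone H3 lysine methyltransferase, and the *Pdx1* promoter drives Cre in the pancreatic epithelium, so that fibroblasts, vessels and leukocytes keep the gene in both genotypes. All mice, 4 weeks old by the study's methods, were fasted for 12 h, received 8 hourly injections of caerulein at 50 μg/kg and were killed 18 h after the first dose, and no saline-treated section was analysed here. Sections were formalin-fixed and paraffin-embedded and were profiled with the CytAssist Visium workflow, in which pairs of probes report each gene. Values are given in the order replicate 1 and replicate 2 of a genotype, numbers that name sections and pair none of them.

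*Ehmt2* itself had 52.8 and 8.22 non-enzyme CPM in the sections labelled WT and 12.9 and 15.3 in those labelled KO. Non-enzyme CPM are UMIs of a gene scaled to a common total of all UMIs but those of 34 acinar digestive enzyme genes, and are the level used below unless another scale is named. Replicate 2 of the sections labelled WT therefore lay below both sections labelled KO, so genotypes are given below as labels. Probe background, read below from the median olfactory receptor gene, was 10.3 in that section and 10.6 and 16.0 in those labelled KO. *Ehmt2* was thus near background in these sections and their order is not firm. Only replicate 1 labelled WT, with a background of 0.672, stood far above it, and the fold change below rests on that section. The log2 fold change of *Ehmt2*, KO over WT, was −2.65 (SE 0.78, adjusted p = 0.191 by edgeR), and where its probes lie relative to the deleted part is not given in the sources used here. Spots with at least 500 UMIs numbered 6144 and 7871 in the sections labelled WT and 6483 and 6462 in those labelled KO, and held 6643747 to 43784930 UMIs per section. Replicate 1 of the sections labelled WT stood apart in depth, with a median of 6327.5 UMIs per spot against 874 to 1113 in the other 3. Digestive enzymes took 62.6% and 51.9% of UMIs in the sections labelled WT and 21.9% and 21.2% in those labelled KO. Y-linked *Eif2s3y* had 1 UMI in the 2 sections labelled WT together and 18.7 and 22.2 non-enzyme CPM in those labelled KO, so sex and genotype cannot be told apart. The files listed 14008 to 14336 spot barcodes per section, of which 13898 occurred in all 4, since barcodes name positions of the slide design. In such sections fewer cells of a type and less RNA per cell cannot be told apart either.

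Fibrillar collagens form the rope-like fibres of connective tissue, type IV collagen and laminins build the sheet under epithelia and around vessels and acini, and small proteoglycans and microfibrils bind to and organise both. Fibronectin, thrombospondins and tenascin C are matricellular or provisional matrix proteins that are deposited early after injury. In the pancreas the main sources of fibrillar matrix are fibroblasts and stellate cells, while endothelial and epithelial cells contribute much of the basement membrane.

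Start-site sequence is shown for the 3 genes with the most UMIs that had 1 start in the RefSeq promoter table and no annotated exon in the window, as examples of how different the promoters of matrix genes are. Each is the 250 bases before the RefSeq start (GRCm38.p6), 5′ to 3′ on the gene's strand, with motif matches on either strand in capitals. The motifs searched were the TATA element (letters TATAAA), the site of the factor NF-Y (letters CCAAT), the site of SP1-like factors known as the GC box (letters GGGCGG), the site of AP-1 factors (letters TGANTCA) and the CArG box of serum response factor. The windows are chr1:45311288-45311537 (plus strand) for *Col3a1*, chr2:27886175-27886424 (plus strand) for *Col5a1* and chr1:90843972-90844221 (minus strand) for *Col6a3*.
Col3a1: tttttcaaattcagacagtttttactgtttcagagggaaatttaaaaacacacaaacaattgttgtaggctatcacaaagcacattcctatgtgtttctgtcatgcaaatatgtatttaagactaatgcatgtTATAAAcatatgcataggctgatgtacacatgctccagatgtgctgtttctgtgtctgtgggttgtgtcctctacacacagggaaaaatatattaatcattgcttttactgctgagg
Col5a1: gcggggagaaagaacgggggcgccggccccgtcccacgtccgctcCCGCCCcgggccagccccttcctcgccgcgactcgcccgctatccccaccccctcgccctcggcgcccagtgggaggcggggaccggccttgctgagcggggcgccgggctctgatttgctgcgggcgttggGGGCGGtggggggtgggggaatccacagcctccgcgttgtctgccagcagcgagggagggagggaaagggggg
Col6a3: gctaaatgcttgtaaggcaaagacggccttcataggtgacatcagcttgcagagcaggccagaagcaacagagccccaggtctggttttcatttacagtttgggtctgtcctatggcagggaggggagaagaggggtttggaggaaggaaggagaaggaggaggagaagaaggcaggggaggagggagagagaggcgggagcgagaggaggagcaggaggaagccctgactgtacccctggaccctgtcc
The *Col3a1* window had 35.2% G and C and a TATA box match that began 117 bases before the start, the *Col5a1* window had 76.4% G and C with GC box matches at 205 and 73 bases before the start, and the *Col6a3* window had 57.2% G and C and none of these letters. Of the 50 genes, 32 were in the promoter table. A GC box match was present in 59.4% of these 32 genes and in 35.4% of all 27025 genes of the table. TATA box matches were present in 15.6% and 14.3%, CCAAT box matches in 31.2% and 37.5%, AP-1 matches in 3.12% and 7.82%, and CArG box matches in 3.12% and 1.62%, respectively, with overlapping matches each counted once per gene. The 18 genes that were not in it were *Col1a1*, *Col5a2*, *Col12a1*, *Col14a1*, *Lama4*, *Lamc1*, *Nid2*, *Dcn*, *Lum*, *Eln*, *Mfap5*, *Fn1*, *Sparcl1*, *Thbs1*, *Mgp*, *Lox*, *Loxl1* and *Loxl2*.

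The 50 genes together took 0.114% and 0.200% of all UMIs counted in the sections labelled WT and 0.710% and 0.662% in those labelled KO. The 95% Wilson intervals of these shares, which cover counting error only, were 0.113% to 0.115%, 0.197% to 0.203%, 0.704% to 0.717% and 0.656% to 0.667%. In non-enzyme CPM the summed level was 3051 and 4151 in the sections labelled WT and 9088 and 8396 in those labelled KO. The genotypes did not overlap on either scale, and the ratio of the means was 2.43 in non-enzyme CPM. An exact two-sided permutation test over the sections gave p = 0.333 on both scales, the smallest p that 2 against 2 sections allow. Of the 50 genes, 44 (88%) were higher in both sections labelled KO than in both labelled WT in non-enzyme CPM and 0 were lower, against 51.8% and 5.57% of all 20024 genes compared in this way. In CPM of all UMIs 49 were higher and 0 lower, against 91.8% and 0.778% of all genes tested, a share near the background.

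**Figure D1:**
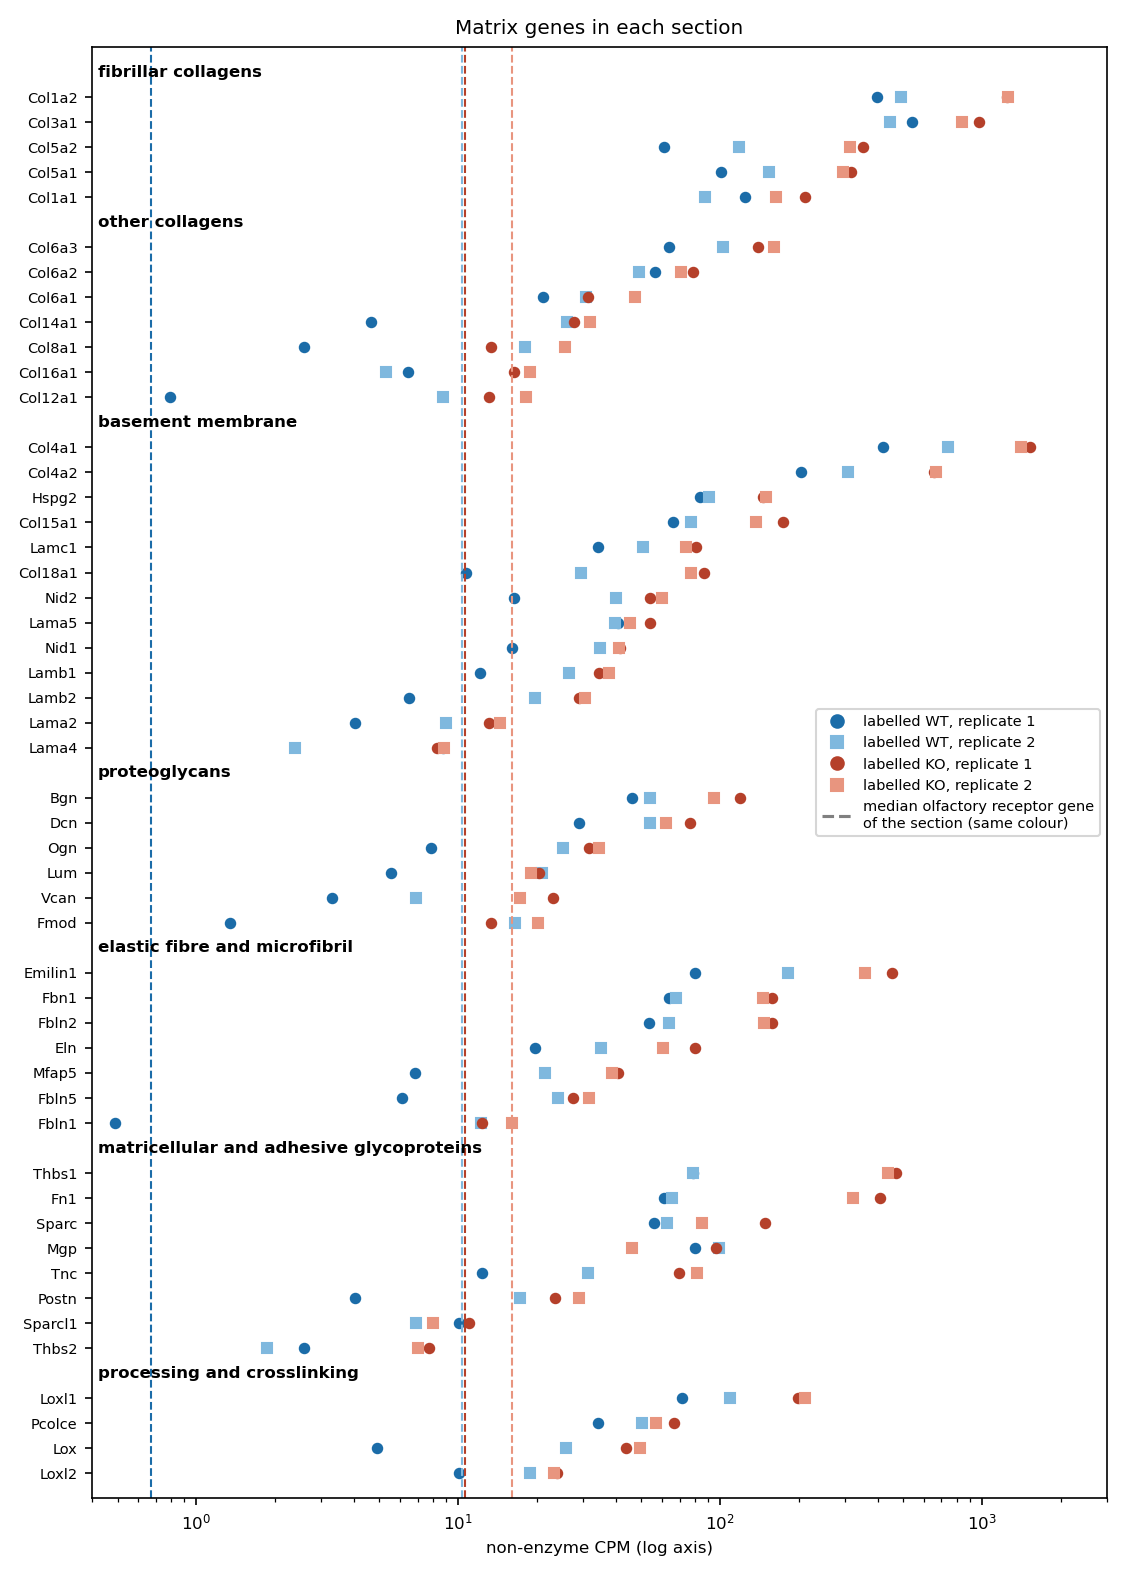
Levels in non-enzyme CPM (log axis) of the 50 matrix genes in each section, by group, with dashed lines at the median olfactory receptor gene of each section. Thbs1 and Fn1 lie at 61.0 to 79.0 in the sections labelled WT and at 320.4 to 469.6 in those labelled KO, while Mgp overlaps between genotypes.

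Probe background was read from 1107 olfactory receptor genes, taken here as a set with little expression in the pancreas, which was not tested. Their median was 0.672 and 10.3 non-enzyme CPM in the sections labelled WT and 10.6 and 16.0 in those labelled KO. It was thus alike in replicate 2 of the former and replicate 1 of the latter, and far lower in the deep replicate 1. Of the 50 genes, 47 and 39 exceeded the 95th percentile of these genes in the sections labelled WT and 40 and 38 in those labelled KO. *Col12a1*, *Fmod* and *Fbln1* exceeded it in 0 of 4 sections, and *Col8a1*, *Col16a1*, *Lama2*, *Lama4*, *Sparcl1* and *Thbs2* in 1.

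Counts were compared between genotypes with edgeR's quasi-likelihood test after TMM scaling, the scaling by trimmed means of ratios fixed for the comparison. None of the 50 genes passed an adjusted p of 0.05, the smallest adjusted p was 0.863, and none had an unadjusted p below 0.05 in either direction by edgeR. Over all 20053 genes tested 0.11% passed, and at an unadjusted p below 0.05 0.384% were higher and 4.9% lower in the sections labelled KO. DESeq2 called none of the 50 either, but gave no adjusted p to some of them, which could thus not be called. *Mgp*, *Col18a1*, *Tnc*, *Lama5* and *Col6a2* were among these. Only *Mgp*, which was lower, had an unadjusted p below 0.05 by DESeq2. Over all 20053 genes DESeq2 called 6 higher and 464 lower. At an unadjusted p below 0.05 by DESeq2, 62 of them were higher and 2421 lower, so the value of *Mgp* does not set it apart. The median log2 fold change of the 50 genes, KO over WT, was 0.26 and that of all genes tested was 0.25. On the TMM scale 15 of the 50 (30%) were higher in both sections labelled KO and 1, *Mgp*, was lower in both, against 20.4% and 17.2% of all genes.

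TMM scaling placed the sections on levels at which the median olfactory receptor gene had 0.873 and 5.20 CPM in the sections labelled WT and 4.90 and 5.95 in those labelled KO. A second fit, added after this was seen, set each gene's CPM of all UMIs against the median olfactory receptor gene of the section. It kept genes for which the geometric mean of this ratio over the 4 sections was at least 4, and computed TMM on them. A kept gene could thus lie under 4 times in most sections and pass through the low background of replicate 1 labelled WT. *Col6a1*, for example, had 7.90 CPM there, where the median was 0.251. In replicate 2 labelled WT it had 14.8, where the median was 4.97. It had 24.5 and 37.4 in the sections labelled KO, where the medians were 8.28 and 12.6. The second fit held 6837 genes and 31 of the 50, and the other 19 were not tested in it. None of the 31, and none of all 6837 genes, passed an adjusted p of 0.05 by edgeR. At an unadjusted p below 0.05, 16 of the 31 were higher and 0 lower, against 7.65% and 9.11% of all 6837 genes, and 25 of the 31 were higher in both sections labelled KO and 0 lower, against 28.2% and 27.9%. The median log2 fold change was 0.85 for the 31 and 0.01 for all 6837. Since the filter reads the same counts, these values describe the genes that passed it and not all 50.

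All 5 fibrillar collagens were higher in both sections labelled KO than in both labelled WT in non-enzyme CPM, as were 51.8% of all genes compared. *Col1a2*, a chain of type I collagen, had 396.5 and 488.2 non-enzyme CPM in the sections labelled WT and 1240 and 1260 in those labelled KO. The genotypes did not overlap and the ratio of the means was 2.83. *Col3a1*, the type III collagen chain, had 541.5 and 446.9 against 969.4 and 840.6, a ratio of 1.83. *Col5a2*, a chain of type V collagen, which regulates fibril diameter, had 61.0 and 118.2 against 352.3 and 313.4, the highest ratio of the group at 3.71. *Col5a1* had 101.1 and 153.2 against 315.5 and 293.7, and *Col1a1* had 124.2 and 87.2 against 210.9 and 163.2. With TMM over all genes the log2 fold changes were 1.0 (SE 0.998) for *Col5a2*, 0.44 (SE 1.17) for *Col1a2*, −0.30 (SE 1.16) for *Col3a1* and −0.39 (SE 0.97) for *Col1a1*, so the direction of the last 2 depended on the scaling. In the fit on genes above probe background these 4 were 1.65 (SE 0.38), 1.24 (SE 0.26), 0.61 (SE 0.27) and 0.56 (SE 0.31), with adjusted p of 0.156 to 0.412.

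Fibrillar collagen genes did not keep 1 ratio among themselves. *Col1a1* had 0.313 and 0.179 UMIs per *Col1a2* UMI in the sections labelled WT and 0.170 and 0.130 in those labelled KO, values that depend on each gene's probes and so say nothing of the molar ratio. *Col1a2* had 0.732 and 1.09 UMIs per *Col3a1* UMI against 1.28 and 1.498. *Col3a1* and *Col5a2* are neighbours on chromosome 1 (chr1:45311538-45349706, plus strand, and chr1:45374321-45503282, minus strand, GRCm38) with 24614 bases between them, and their ratio was 8.88 and 3.78 against 2.75 and 2.68. All 3 ratios were therefore on 1 side in both sections of a genotype, with an exact permutation p of 0.333 each, and replicate 1 labelled WT lay farther from the rest than replicate 2.

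Type VI collagens form beaded filaments around cells. *Col6a3* had 63.8 and 102.6 non-enzyme CPM against 140.0 and 160.6, *Col6a2* had 56.6 and 48.8 against 78.6 and 71.1, and *Col6a1* had 21.1 and 30.7 against 31.4 and 47.5. Each was higher in both sections labelled KO, by ratios of the means of 1.81, 1.42 and 1.52, below the ratio of 2.43 of the 50 genes together. With TMM over all genes *Col6a2* had a log2 fold change of −0.65 (SE 0.86), among the 3 lowest of the genes above background, and in the fit on genes above background 0.24 (SE 0.25). *Col8a1*, *Col12a1* and *Col16a1* exceeded the olfactory receptor 95th percentile in at most 1 section, with levels of 0.794 to 25.6. *Col14a1*, a collagen that decorates fibrils, had 4.64 and 26.0 against 27.7 and 32.0, so that replicate 2 labelled WT was close to replicate 1 labelled KO.

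Of the 13 basement membrane genes 12 were higher in both sections labelled KO in non-enzyme CPM, type IV collagen among them, against 51.8% of all genes compared. *Col4a1*, a chain of this network-forming collagen, had 420.0 and 740.3 non-enzyme CPM in the sections labelled WT and 1523 and 1407 in those labelled KO, a ratio of the means of 2.53. *Col4a2* had 203.7 and 306.9 against 654.7 and 669.3, a ratio of 2.59. The 2 genes start head to head on chromosome 8 (chr8:11198423-11312826, minus strand, and chr8:11312805-11449287, plus strand) with annotated starts that overlap by 22 bases. *Col4a1* had 2.06, 2.41, 2.33 and 2.10 UMIs per *Col4a2* UMI in the 4 sections, values that overlapped between genotypes. With TMM over all genes their log2 fold changes were 0.41 (SE 1.19) and 0.39 (SE 1.09), and in the fit on genes above background 1.08 (SE 0.36) and 1.12 (SE 0.30), with adjusted p of 0.249 and 0.202.

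*Col18a1*, a basement membrane collagen that carries endostatin, had 10.7 and 29.4 non-enzyme CPM against 86.5 and 77.4, a ratio of 4.08 and the third highest log2 fold change of the genes above background (1.25, SE 0.78, adjusted p = 0.863 by edgeR). *Hspg2*, which encodes perlecan, had 83.7 and 90.4 against 145.8 and 149.9, and *Col15a1*, a collagen of vessel basement membranes, had 65.9 and 77.1 against 173.2 and 137.6. The laminin and nidogen genes had ratios of 1.23 to 2.28. *Lama5*, a laminin chain of epithelia and vessels, had 40.7 and 39.8 against 53.7 and 45.4, a ratio of 1.23. Its log2 fold change was −0.82 (SE 0.81) with TMM over all genes and 0.04 (SE 0.26) in the fit on genes above background. *Lamb1*, *Lamb2*, *Lamc1*, *Nid1* and *Nid2* ranged from 6.47 to 81.1 over the sections. *Lama2* and *Lama4* lay at 2.38 to 14.4, above the olfactory receptor 95th percentile in 1 section each.

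Proteoglycans had few UMIs, 1524 and 668 in the sections labelled WT and 1477 and 1553 in those labelled KO. *Bgn*, the small leucine-rich proteoglycan biglycan, had 46.0 and 53.8 non-enzyme CPM against 119.4 and 95.1, and *Dcn*, decorin, had 29.0 and 53.8 against 76.8 and 62.2. Both were higher in both sections labelled KO, with ratios of 2.15 and 1.68. *Ogn* had 7.88 and 25.2 against 31.6 and 34.5. *Vcan*, the large proteoglycan versican of provisional matrix, had 3.30 and 6.89 against 22.9 and 17.3, a ratio of 3.94, but exceeded the olfactory receptor 95th percentile in 2 of 4 sections. *Lum* and *Fmod* overlapped between genotypes, at 5.56 and 20.9 against 20.4 and 19.0 and at 1.34 and 16.4 against 13.3 and 20.1.

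All 7 elastic fibre and microfibril genes were higher in both sections labelled KO in non-enzyme CPM, as were 51.8% of all genes compared. On the TMM scale *Emilin1* and *Mfap5* were the only members of the group higher in both. All 7 log2 fold changes were above 0 with TMM over all genes, at 0.11 to 0.80, where the median of all genes was 0.25. *Emilin1*, a glycoprotein at the surface of elastic fibres, had 80.0 and 180.8 against 452.4 and 356.8, a ratio of 3.10. *Fbn1*, fibrillin 1, the backbone of microfibrils, had 63.8 and 67.8 against 157.6 and 145.3, and *Fbln2* had 53.4 and 63.9 against 158.1 and 146.9. *Fbn1* and *Fbln2* thus differed little within a genotype, with ratios between genotypes of 2.30 and 2.60. *Eln*, elastin, had 19.7 and 34.99 against 79.9 and 60.7. *Mfap5*, *Fbln5* and *Fbln1* were at 0.488 to 40.8, and *Fbln1*, with 12.2 in replicate 2 labelled WT and 12.3 in replicate 1 labelled KO, was at background.

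The matricellular group held both the highest and the lowest fold changes. *Thbs1* (chr2:118111876-118127133, plus strand), a thrombospondin that binds and activates latent TGF-beta, had 78.6 and 79.0 non-enzyme CPM in the sections labelled WT and 469.6 and 436.6 in those labelled KO. *Fn1* (chr1:71585520-71653200, minus strand), fibronectin, had 61.0 and 65.7 against 408.3 and 320.4. The means were 78.8 ± 0.274 against 453.1 ± 23.3 for *Thbs1* and 63.4 ± 3.34 against 364.4 ± 62.2 for *Fn1* (SD, n = 2 sections each), ratios of 5.75 for both genes. The gap between genotypes was larger than the SD within them for both genes, although the exact permutation p of a 2 against 2 comparison cannot fall below 0.333. Both genes were named for their fold changes in these same counts, so the gap is a description only. With TMM over all genes their log2 fold changes were 1.41 (SE 1.03) and 1.44 (SE 1.01), each with an adjusted p of 0.863. In the fit on genes above background they were 2.26 (SE 0.25) and 2.27 (SE 0.27), with an adjusted p of 0.110 each by edgeR. They passed when the section's median olfactory receptor count was subtracted from each gene first (adjusted p = 0.0335 each, log2 fold changes of 2.54), where they were the 2 genes of the 31 called, against 1.13% of all genes called higher. Without replicate 1 labelled WT the log2 fold changes were 2.23 for *Fn1* and 2.27 for *Thbs1*, and without replicate 2 labelled WT they were 0.80 and 0.74. In each of these fits the lone WT section is assumed to vary like the KO sections, so only the size of the difference is given.

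*Fn1* and *Thbs1*, which lie on different chromosomes, had ratios that overlapped between genotypes, with 0.776 and 0.832 *Fn1* UMIs per *Thbs1* UMI in the sections labelled WT and 0.870 and 0.734 in those labelled KO. Against *Col3a1* both differed. *Fn1* had 0.113 and 0.147 UMIs per *Col3a1* UMI against 0.421 and 0.381, and *Thbs1* had 0.145 and 0.177 against 0.484 and 0.519. Ratios within a section need no scaling between sections, and neither overlapped between genotypes (exact permutation p = 0.333 each). *Tnc*, tenascin C, had 12.3 and 31.3 non-enzyme CPM against 69.3 and 81.8, a ratio of 3.47. *Sparc*, a collagen-binding glycoprotein, had 55.8 and 62.8 against 148.9 and 85.2, with the sections labelled KO farther apart than those labelled WT.

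*Mgp* (chr6:136872435-136875823, minus strand), matrix Gla protein, an inhibitor of calcification made by smooth muscle and other mesenchymal cells, differed from the rest of the group. It had 79.9 and 99.4 non-enzyme CPM in the sections labelled WT and 96.5 and 46.2 in those labelled KO, values that overlapped. It was the 1 gene of the 31 above background with a log2 fold change below 0 in that fit (−0.58, SE 0.42, adjusted p = 0.489), and it had the lowest of the 50 with TMM over all genes (−1.33, SE 0.92, adjusted p = 0.863). *Postn*, *Sparcl1* and *Thbs2* were at 1.85 to 28.9. *Sparcl1*, a relative of *Sparc* made by vessel-associated cells, overlapped between genotypes at 10.0 and 6.89 against 11.0 and 7.99.

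Among genes of processing and crosslinking, *Loxl1*, a lysyl oxidase-like enzyme of elastic fibres, had 71.3 and 108.7 non-enzyme CPM against 199.0 and 210.6, a ratio of 2.28. *Pcolce*, which enhances removal of the procollagen C-propeptide, had 34.1 and 50.1 against 66.4 and 56.9, a ratio of 1.46. *Lox*, lysyl oxidase, had 4.88 and 25.7 against 43.7 and 49.5, and *Loxl2* had 10.1 and 18.8 against 23.9 and 23.2. All 4 were higher in both sections labelled KO in non-enzyme CPM, as were 51.8% of all genes compared. Their log2 fold changes with TMM over all genes were 0.20 (SE 0.96), −0.43 (SE 0.81), 1.0 (SE 0.67) and −0.21 (SE 0.71), with a group median of −0.01.

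To compare the makeup of the matrix transcripts without any scaling between sections, each gene was given as a share of the UMIs of the 50 genes, a measure added after the counts were seen. *Fn1* held 2.0% and 1.58% in the sections labelled WT (95% Wilson intervals 1.88% to 2.13% and 1.40% to 1.79%) and 4.49% and 3.82% in those labelled KO (4.31% to 4.68% and 3.66% to 3.98%). *Thbs1* held 2.58% and 1.90% against 5.17% and 5.20%. *Mgp* held 2.62% and 2.39% (2.48% to 2.76% and 2.17% to 2.65%) against 1.06% and 0.550% (0.973% to 1.16% and 0.490% to 0.617%). The share of *Fn1* and *Thbs1* was thus 2.32 and 2.31 times as high in the mean of the sections labelled KO, and that of *Mgp* 0.322 times. In all, 7 genes had a higher share in both sections labelled KO (*Col1a2*, *Col5a2*, *Col18a1*, *Vcan*, *Fn1*, *Tnc* and *Thbs1*) and 13 a lower one (*Col3a1*, *Col6a1*, *Col6a2*, *Col6a3*, *Hspg2*, *Lama5*, *Lamc1*, *Nid1*, *Dcn*, *Sparcl1*, *Mgp*, *Loxl2* and *Pcolce*), with an exact permutation p of 0.333 for each. Some of these gaps lay within counting error. *Col3a1* held 10.77% (10.29% to 11.26%) in replicate 2 labelled WT and 10.67% (10.39% to 10.95%) in replicate 1 labelled KO. *Tnc* held 0.754% (0.630% to 0.902%) and 0.763% (0.688% to 0.846%) in the same sections. *Vcan* and *Sparcl1* lay below the olfactory receptor median in replicate 2 labelled WT, as did *Sparcl1* in replicate 2 labelled KO. Of all 20053 genes tested, 1.89% were higher and 37.5% lower without overlap when set against the same sum of the 50 genes, a sum that was itself higher in the sections labelled KO. Shares sum to 100%, so a gene's share can be lower while its level in CPM is higher.

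**Figure D2:**
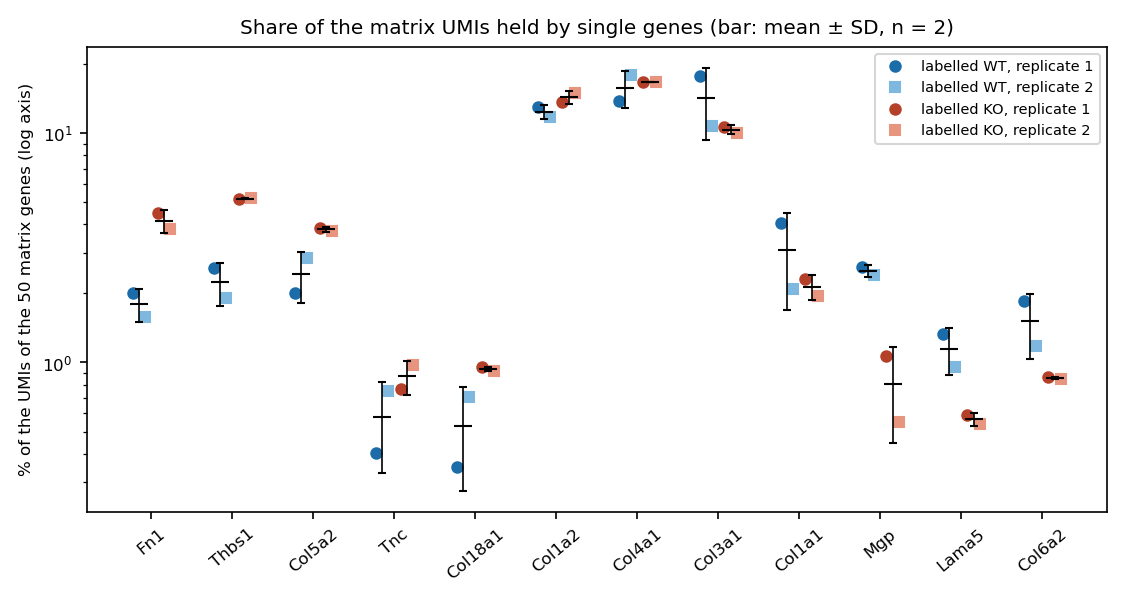
Share of the UMIs of the 50 matrix genes held by 12 of them (log axis), as points for the 4 sections and bars for the mean ± SD of the 2 sections of a genotype. Fn1 and Thbs1 lie at 1.58% to 2.58% in the sections labelled WT and at 3.82% to 5.20% in those labelled KO, and Mgp at 2.39% to 2.62% and at 0.550% to 1.06%.

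By group, fibrillar collagens held 40.1% and 31.2% of the matrix UMIs in the sections labelled WT and 34.0% and 34.2% in those labelled KO, and basement membrane genes 30.2% and 35.3% against 31.9% and 32.8%. Both overlapped between genotypes. The matricellular group held 9.97% and 8.77% against 13.6% and 12.1%, which did not overlap, and the collagens of the second group 5.11% and 5.79% against 3.53% and 4.45%, which did not overlap either. Proteoglycans held 3.05% and 4.27% against 3.13% and 2.96%, elastic fibre genes 7.55% and 9.76% against 10.2% and 9.48%, and the processing genes 3.94% and 4.90% against 3.66% and 4.05%, and all 3 groups overlapped.

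The fold changes of all groups moved with the scaling. The group medians lay between −0.01 and 0.57 with TMM over all genes, between −0.40 and 0.19 with DESeq2's size factors, and between 1.69 and 2.35 with library sizes alone, where 14 of the 50 were called higher, against 1.93% of all genes, and the median of all genes was 1.69. In each of these the matricellular group had the highest median and the order of *Fn1* and *Thbs1* above *Mgp* was the same. Each scaling multiplies a whole section by a common factor and so moves the fold changes of all genes by a similar amount. *Fn1*, *Thbs1* and *Mgp* were also named for their fold changes in the same counts. The order of genes and groups could thus hardly change, and its being kept is not read as a result. The part of the probe background, the digestive enzyme share and the depth of replicate 1 labelled WT in the fold changes was not tested.

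**Figure D3:**
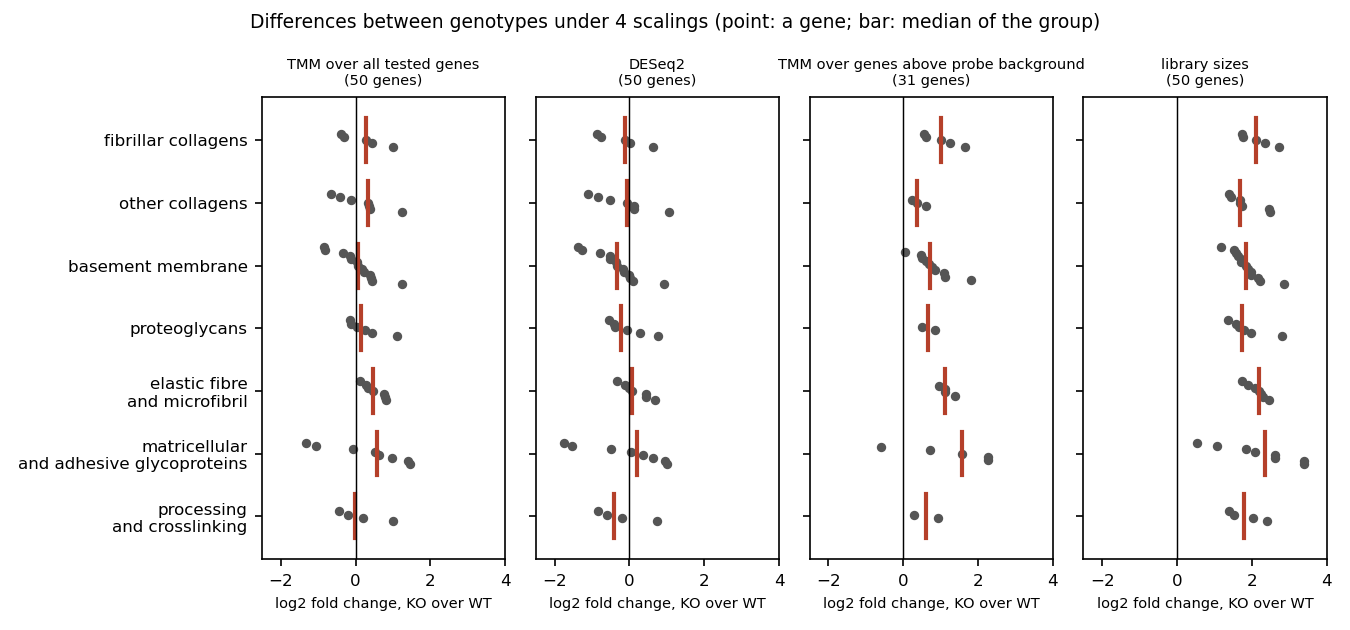
Log2 fold change, KO over WT, of the matrix genes by group (points) with the group median (bar) under 4 scalings. The group medians lie from −0.01 to 0.57 with TMM over all genes and from 1.69 to 2.35 with library sizes.

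A spot was counted for a gene when it held at least 1 UMI, after thinning every spot to 500 UMIs so that depth did not set the share. Spots with *Fn1* made up 1.58% and 1.76% in the sections labelled WT and 15.2% and 12.3% in those labelled KO. For *Thbs1* the shares were 1.96% and 2.08% against 17.0% and 16.2%, and for *Col4a1* 9.004% and 16.7% against 43.9% and 41.3%. The median olfactory receptor gene had 0.0168% and 0.274% against 0.431% and 0.671%, so these shares stood far above background in every section. *Mgp* had 1.92% and 2.54% against 3.55% and 1.997%, which overlapped. Without thinning, a mean of 11.2% and 3.61% of spots held a given gene of the 50 in the sections labelled WT and 10.8% and 11.6% in those labelled KO, an order in which the deep replicate 1 joined the latter. After thinning these means were 1.38% and 2.06% against 6.23% and 5.87%. Thinning to 500 non-enzyme UMIs used only spots with that many, 5547 and 2556 in the sections labelled WT and 6017 and 5949 in those labelled KO. There the means were 3.12% and 3.70% against 7.56% and 7.01%. *Fn1* then had 3.68% and 3.08% against 18.1% and 14.5%, and *Thbs1* 4.37% and 4.31% against 20.8% and 19.3%. *Col4a1* had 20.1% and 30.8% against 51.6% and 48.2%. *Mgp* had 4.32% and 4.96% against 4.23% and 2.32%, which did not overlap. Any of the 50 genes was seen in 45.8% and 61.3% of spots thinned to 500 UMIs against 94.9% and 93.9%. With 500 non-enzyme UMIs these shares were 75.4% and 83.4% against 97.8% and 97.1%.

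Within sections, spots were ordered by the share of digestive enzyme UMIs and divided into 10 bins. Fibrillar collagens were higher in the bin lowest in enzymes than in the bin highest in all 4 sections. From the bin lowest in enzymes to the bin highest, their summed level in non-enzyme CPM was 3324 and 769.9 in replicate 1 labelled WT, 2102 and 873.7 in replicate 2, 3373 and 2013 in replicate 1 labelled KO and 3584 and 1918 in replicate 2. Basement membrane genes were flatter, with ratios between those bins of 2.10 and 1.40 in the sections labelled WT and 1.05 and 1.02 in those labelled KO, against 4.32 and 2.41 and 1.68 and 1.87 for fibrillar collagens. For elastin the ratio was 13.3 in replicate 1 labelled WT and 4.07, 3.19 and 2.53 in the others. *Lama5* was the other way in 3 sections, with ratios of 1.11, 0.612, 0.625 and 0.587. In all 4 sections 33 of the 50 genes were higher in the bin lowest in enzymes than in the bin highest. These include *Col8a1*, which exceeded the olfactory receptor 95th percentile in 1 section. The same count was not made over all genes, so it is not read as a trait of matrix genes.

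The enzyme share per bin differed between genotypes, at 24.8% to 67.2% in the sections labelled WT and 1.75% to 40.6% in those labelled KO. Of the 50 genes 8 were higher in each of the 20 bins of the sections labelled KO than in any bin of those labelled WT: *Fn1*, *Thbs1*, *Col4a1*, *Col4a2*, *Col18a1*, *Col5a2*, *Fbln2* and *Loxl1*. Of all 20024 genes compared, 1.01% separated in this way. *Loxl1* did so narrowly, with 144.6 in its lowest KO bin and 144.2 in its highest WT bin, as did *Fbln2*, with 107.4 and 105.9. *Fn1* was at 145.3 and 132.6 in the bins lowest in enzymes of the sections labelled WT and still at 200.3 and 233.4 in the bins highest in enzymes of those labelled KO. *Thbs1* followed enzymes less, at 371.6 and 258.1 in the lowest and highest bins of replicate 1 and 285.6 and 400.1 in those of replicate 2 labelled KO. *Col3a1* overlapped widely, since its bin lowest in enzymes in replicate 1 labelled WT, at 1372, lay above all bins labelled KO, the highest of which was 1281. Bins of a section share a library and are not replicates, and no test was made on them.

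**Figure D4:**
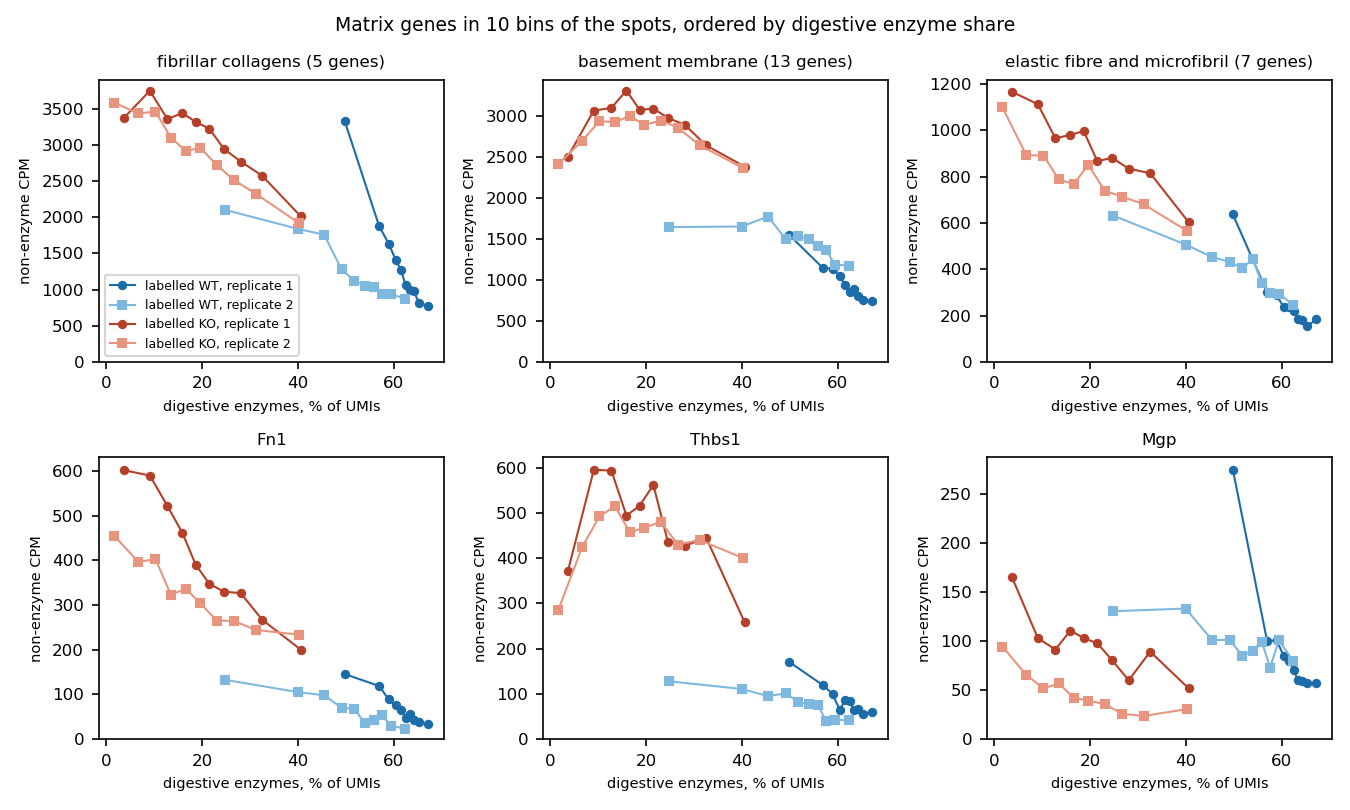
Summed level (non-enzyme CPM) of 3 groups and 3 single genes in bins of the spots of each section, against the digestive enzyme share of the bin. Fibrillar collagens are lower in the bin highest in enzymes than in the bin lowest in every section, from 3324 to 769.9 in replicate 1 labelled WT, and all bins of the sections labelled KO lie above all bins of the sections labelled WT for Fn1 and Thbs1.

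Spot by spot the correlations between the groups were low. Spearman's rho between the levels of any 2 of the 7 groups had a median of 0.108 and 0.025 in the sections labelled WT and 0.04 and 0.042 in those labelled KO, with a highest value of 0.24. In the deep replicate 1 labelled WT all values lay between 0.071 and 0.24. The groups share the spot's depth and the counts per spot were low. All 50 genes together had a median of 7 and 2 against 7 and 7 UMIs per spot. Such low counts pull rho toward 0, so these values are a description only and do not show that the groups are unrelated.

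Genes that act on the matrix or respond to it were read from lists of 22 collagen synthesis genes, 19 genes of the TGF-beta pathway, 8 collagen receptors and 12 epithelial and other basement membrane genes. None of the 60 tested passed an adjusted p of 0.05 by edgeR with TMM. At an unadjusted p below 0.05, 2 genes of the TGF-beta list were higher and 1, *Ltbp3*, lower, *Lamb3* of the basement membrane list was lower and none of the others were. *Tgfbi*, a matrix protein induced by TGF-beta, had 42.8 and 54.6 non-enzyme CPM in the sections labelled WT and 519.3 and 458.6 in those labelled KO, with a log2 fold change of 2.30 (SE 1.05, adjusted p = 0.863 by edgeR). Its fold change was larger than that of any of the 50 genes in this fit, and the genotypes did not overlap.

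Among the genes of collagen synthesis none had an unadjusted p below 0.05 by edgeR. *Serpinh1*, the collagen chaperone, had 99.0 and 118.5 non-enzyme CPM against 202.6 and 145.9. *P4ha2*, a prolyl hydroxylase subunit, had 82.2 and 74.0 against 66.1 and 67.4, and *P3h4*, a factor of collagen hydroxylation, had 75.4 and 90.1 against 60.5 and 68.9, so both were lower in both sections labelled KO on this scale. With TMM over all genes the log2 fold changes of *P3h4* and *P4ha2* were −1.43 and −1.38, each with an adjusted p of 0.863 by edgeR. The summed level of the list had a ratio of 1.48 between genotypes against 2.43 for the 50 matrix genes. Of the collagen receptors, *Ddr1*, an epithelial receptor, had 356.7 and 408.7 against 299.9 and 281.3. *Itgb1*, the common beta chain, had 63.7 and 34.99 against 50.1 and 44.8, which overlapped. *Itga2* had 1.71 and 1.06 against 15.8 and 13.7, with only 4 UMIs in replicate 2 labelled WT. *Itga2* lay below the olfactory receptor median in that section and in replicate 2 labelled KO, where the median was 16.0. In replicate 1 labelled KO its 12.3 CPM of all UMIs lay below the olfactory receptor 95th percentile of 16.7. Its difference between genotypes is thus not firm. *Lamb3*, a chain of epithelial laminin, had 31.8 and 25.4 against 24.3 and 24.3, and *Col7a1*, the anchoring fibril collagen, had 92.7 and 98.6 against 59.7 and 66.2.

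Summed marker levels of cells that make matrix were also higher in the sections labelled KO in non-enzyme CPM. With TMM the direction changed for part of the fibroblast and endothelial markers. Summed over the list, 10 fibroblast markers had 240.5 and 374.2 non-enzyme CPM in the sections labelled WT and 578.0 and 567.0 in those labelled KO, with 7 to 10 of the 10 above the olfactory receptor 95th percentile in a section. The 8 smooth muscle and pericyte markers had 72.2 and 154.5 against 413.1 and 346.0, with 4 to 7 above it, the 8 endothelial markers 285.7 and 383.8 against 695.3 and 578.8, with 5 to 8, and the 8 macrophage markers 184.4 and 248.6 against 943.8 and 772.2, with 6 or 7. The ratios of the means were 1.86, 3.35, 1.90 and 3.96, against 5.75 for *Fn1* and *Thbs1* and 1.83 for *Col3a1*. In non-enzyme CPM 8 of 10, 6 of 8, 7 of 8 and 8 of 8 of these markers were higher without overlap, against 51.8% of all 20024 genes compared. With TMM over all genes the median log2 fold changes were 0.29, 0.61, −0.07 and 0.98, against 0.25 for all genes tested. Below 0 were 4 fibroblast, 0 smooth muscle and pericyte, 5 endothelial and 0 macrophage markers. No gene of these 4 lists passed an adjusted p of 0.05 with TMM, and none was at 0 in all sections. Mesothelial markers other than *Krt19* were at 0.550 to 39.1. The part of these cells in the matrix values was not tested.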

How the data were processed

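The authors aligned probe reads with Space Ranger (version 2.0.1 per the file headers) to mm10 and deposited raw UMI counts per gene and spot, with no normalization. Of 32589 features, 304 deprecated ones were left out. Their later filtering and normalization were not used here. Spots with at least 500 UMIs were kept and their counts summed per section, since spots are not replicates, and each section was 1 sample. Nothing in the labels ties a section to its own extraction or slide, so p-values measure the spread between these sections only. No doublet caller was run on spots.

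Summed counts were tested with edgeR (version 4.0.16, R 4.3.3) by its quasi-likelihood test after TMM and filterByExpr with a minimum count of 10, with Benjamini-Hochberg adjustment over all 20053 genes and a threshold of 0.05. DESeq2 (version 1.42.0) was an alternative. Further alternatives were library sizes without TMM, no filter, enzyme genes left out, other spot filters, fits without each section and other scales for non-overlap. The fits on genes above probe background and the share of the matrix UMIs were chosen after seeing the data. The edgeR steps were tested on simulated data. Permutation tests were exact and two-sided.

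The 50 genes, the pathway lists and the marker lists were chosen with earlier results of these data known. All 50 were named. Values in every section were given for the 3 with the most UMIs in each group and for the 3 largest and 3 smallest log2 fold changes among genes above the olfactory receptor 95th percentile in at least 2 sections, and those of other genes were added after their values were seen. The values of 1 gene of the pathway lists are not reported here.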

Additional observations from a re-analysis of the deposited data

How the results depend on the processing

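Leaving out enzyme genes, the filter on low counts or fat- and lymphoid-rich spots, or taking other spots, left the number of the 50 genes called at 0 and moved no group median past its spread. The scaling mattered more. The number called was 14 with library sizes without TMM, 2 with background subtracted, 25 with library sizes over genes above background, and 0 to 21 without 1 section each, where 2 were called without replicate 1 and 21 (11 higher, 10 lower) without replicate 2 labelled WT. Over all genes 22 were called, against 400 with library sizes, 470 with DESeq2, 0 over genes above background, 133 with background subtracted, 3055 with library sizes over genes above background and 0 to 16653 without 1 section each. The cause was not tested. The highest counts without 1 section, for the 50 and for all genes, came from the same fit, without replicate 2 labelled WT. That fit called most of all genes tested and a smaller share of the 50. The fit without replicate 1 labelled WT also called genes outside the 50, in both directions. Every fit without 1 section leaves 1 section in a genotype. The counts called in these fits are thus not read as a trait of matrix genes. With library sizes over genes above background, the 25 called were of 31 tested, and the 3055 were of 6837.

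The median log2 fold change of the 50 (0.26) was 1.90 with library sizes, −0.12 with DESeq2, 0.85 over genes above background, 1.02 with background subtracted, 1.97 with library sizes over those genes and −0.17 to 0.58 without 1 section each. With library sizes the group medians were 2.10 for fibrillar collagens, 1.70 for other collagens, 1.83 for basement membrane, 1.73 for proteoglycans, 2.20 for elastic fibres, 2.35 for matricellular genes and 1.78 for processing genes. With DESeq2 those of other collagens, basement membrane, proteoglycans and processing genes were −0.0753, −0.33, −0.22 and −0.40. Over genes above background fibrillar collagens, basement membrane, proteoglycans, elastic fibres, matricellular and processing genes had 1.01, 0.73, 0.68, 1.12, 1.57 and 0.62, and with background subtracted 1.18, 0.79, 0.79, 1.32, 1.87 and 0.72. With library sizes over those genes the 7 medians, in the order first given, were 2.10, 1.46, 1.79, 1.78, 2.23, 2.62 and 1.72. Without 1 section each they ran from −0.35 to 0.32 for other collagens, −0.23 to 0.36 for basement membrane and −0.43 to 0.33 for processing genes.

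Of the 50 genes, 17 changed direction with library sizes, all from below to above 0, 13 with DESeq2, all from above to below 0, 12 of 31 over genes above background, and 4 to 18 without 1 section each. For 10 genes (*Fn1*, *Thbs1*, *Col18a1*, *Tnc*, *Col1a2*, *Col3a1*, *Col4a1*, *Col6a2*, *Lama5* and *Mgp*) the value under each alternative was kept, and those that changed direction were *Mgp* (0.53 with library sizes over all genes and over those above background), *Lama5* (1.18 with both library size fits, 0.0409 above background, 0.0147 with background subtracted, −1.50 to 0.0710 without 1 section each), *Col6a2* (1.40, 0.24, 0.35, −1.39 to 0.37), *Col3a1* (1.77, 0.61, 0.82, −1.04 to 0.77) and *Col1a2* (−0.14 to 1.10 without 1 section each, below 0 without replicate 2 labelled WT). Genes of the 50 higher without overlap numbered 15 with TMM, 49 in CPM and 44 in non-enzyme CPM, and those lower 1, 0 and 0. Over all genes the numbers were 4099, 18410 and 10371, and 3448, 156 and 1116. The difference in the mean share of spots with a gene was 4.33 percentage points. It was 3.88 after thinning to 500 non-enzyme UMIs, over the spots with that many, and 3.79 without thinning, where the genotypes overlapped.

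No paired analysis was possible because the replicate numbers only name the sections in accession order, and the labels tie no section of 1 genotype to a section of the other. With 2 sections a genotype, sex aligned with genotype, and a background and depth that differ between sections, the size of a difference depends on the scaling, and genes near the olfactory receptor level give no firm order.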

Other observations

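Other cell type lists are given as summed non-enzyme CPM, with the sections labelled WT first and those labelled KO after them. Neutrophil markers had 7.76 and 65.7 against 144.8 and 144.8, lymphoid markers 30.2 and 240.9 against 371.9 and 477.0 and fat markers 114.0 and 270.6 against 441.5 and 568.3. Of the 5 neutrophil markers, 1 and 0 exceeded the olfactory receptor 95th percentile in the sections labelled WT and 4 and 3 in those labelled KO. *Fabp4* made up most of the fat sum, with 106.4 and 179.4 against 346.7 and 424.9. Ductal markers had 1191 and 1388 against 1051 and 1029, mesothelial markers 460.8 and 616.0 against 301.8 and 297.2 and red cell markers 157.2 and 85.1 against 111.3 and 220.5. *Krt19*, which is in both the ductal and the mesothelial list, had 447.7 and 536.2 against 212.1 and 169.2 and made up most of the mesothelial sum. Of the 6 mesothelial and the 6 ductal markers, 3 each were higher in both sections labelled KO. The lower sums thus do not hold for either list as a whole. *Krt7* of the ductal list had 114.2 and 96.5 against 247.3 and 256.3. Islet markers had 3038 and 1575 against 8605 and 1161, and these, like those of red cells, overlapped between the genotypes.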
